A study of Mus musculus with 4 samples.

Results

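The 6 transcription factor genes described here, Spi1, Cebpa, Cebpb, Cebpd, Maf and Runx1, direct or mark the macrophage lineage, and they were found as every probe of the array whose gene name is one of the 6. They were read by 8 of 55681 distinct probes, 2 each for Maf and Runx1 and 1 each for the other 4 genes. The array design gives the Spi1 probe its older name, Sfpi1, and that probe was matched through its transcript accession. Total RNA of 4 cultures of RAW264.7, an established mouse macrophage-like cell line, was read on 4 Agilent 1-colour arrays. The groups were cells with a vector for an artificial microRNA against Linc-AAM (knockdown) under AEPS, the same cells in DMEM, cells with a scramble vector under AEPS, and scramble cells in DMEM, with 1 array per group and 4 h of treatment. AEPS, given at 50 µg/mL, is a polysaccharide from the roots of Actinidia eriantha, and DMEM is the culture medium alone. Linc-AAM is a long intergenic non-coding RNA. All 4 cultures carried a pcDNA6.2-GW/EmGFP-miR vector, were bulk cultures selected with blasticidin for stable integration, and had no untransfected counterpart among the arrays. The design asks how AEPS alters expression in these macrophages and whether the cells with the vector against Linc-AAM differ in this.

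PU.1, the ETS-family protein encoded by Spi1, opens chromatin at macrophage genes together with C/EBP factors and RUNX1, and myeloid cells fail to form without it. C/EBPα, encoded by Cebpa, commits progenitors to the granulocyte and monocyte fates and restrains cell division, whereas C/EBPβ and C/EBPδ, encoded by Cebpb and Cebpd, are known in macrophages for switching on inflammatory genes after Toll-like receptor signals. RUNX1 is required for the formation of blood stem cells and binds DNA with its partner CBFβ, and c-MAF, encoded by Maf, is a basic leucine zipper factor that acts on Il10 and limits macrophage division.

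The sequences that go with the results are the promoters of Cebpb and Cebpa, shown because the signals of these related genes moved in opposite directions under AEPS, and the Spi1 probe, shown because it reads across a splice junction. The promoters are those of RefSeq for build GRCm38.p6, 300 bases each, on the plus strand, from 250 bases before to 50 after the start site, with motif matches in capitals. Promoters of 3 of the 6 genes (Cebpa, Cebpb and Runx1) were in the table used.
Cebpb, chr2:167688665-167688964: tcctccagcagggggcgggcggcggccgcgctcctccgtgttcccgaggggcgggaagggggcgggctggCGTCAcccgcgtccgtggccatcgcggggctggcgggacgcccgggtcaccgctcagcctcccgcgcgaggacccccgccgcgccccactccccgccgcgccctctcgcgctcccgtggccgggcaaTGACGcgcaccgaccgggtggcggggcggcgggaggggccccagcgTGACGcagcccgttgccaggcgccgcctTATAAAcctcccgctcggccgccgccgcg
Cebpa, chr7:35119043-35119342: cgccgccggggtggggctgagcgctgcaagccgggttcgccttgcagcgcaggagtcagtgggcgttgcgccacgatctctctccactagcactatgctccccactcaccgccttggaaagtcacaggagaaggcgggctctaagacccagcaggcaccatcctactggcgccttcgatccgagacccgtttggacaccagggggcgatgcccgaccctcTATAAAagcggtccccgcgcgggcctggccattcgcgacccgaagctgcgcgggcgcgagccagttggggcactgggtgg
Spi1 probe: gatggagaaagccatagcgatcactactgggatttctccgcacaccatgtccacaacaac
The Cebpb promoter is 80.7% G and C and the Cebpa promoter 67.3%, against a median of 52.7% over the table's 32851 promoters. Searched on both strands, the Cebpb promoter holds the cAMP response element core TGACG at -180, -53 and -7 from the start site, a motif found at least once in 20.8% of all promoters, and the -180 copy lies on the minus strand. The letters TATAAA, in 13.6% of promoters, stand at 22 in Cebpb and at -30 in Cebpa. Neither window holds the C/EBP core TTNNGNAA (40.7% of promoters), the PU.1 core GAGGAA (28.3%), the RUNX core TGTGGT (16.8%), the interferon-gamma-activated letters TTCNNNGAA (8.3%), the NF-kB letters GGGACTTT (1.38%), the AP-1 letters TGANTCA (7.81%) or CCAAT (37.4%). Of the Runx1 promoters, chr16:92826025-92826324 on the minus strand holds the RUNX core at 29 and 37, and chr16:92697280-92697579 on the minus strand holds the PU.1 core at -46. These are matches of letters and were not tested as binding sites.

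In the mm9 coordinates of the array, the Spi1 probe spreads its 60 bases over chromosome 2, 90939665 to 90953452, a span of 13788 bases that crosses at least 1 intron. The other main probes lie at chromosome 7, 35906517 to 35906576 for Cebpa, chromosome 2, 167515828 to 167515887 for Cebpb, chromosome 16, 15888459 to 15888518 for Cebpd, chromosome 8, 118227736 to 118227795 for Maf, and chromosome 16, 92605785 to 92605844 for Runx1. The second Maf probe lies at chromosome 8, 118207273 to 118207332, and the second Runx1 probe at chromosome 16, 92604413 to 92604472. Both Runx1 probes are listed for the same 4 RefSeq transcripts. Cebpa, Cebpb and Cebpd are genes without introns. An mm9 annotation of exons and untranslated regions was not used here.

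Which line is which differs between the scanner files and the authors' value table. Each table column ranked the 55657 shared probes like the scanner array of the other line under the same treatment (Spearman rho across probes at least 0.9999) and less like its own array (rho 0.969). AEPS and DMEM stood in the same place in both. The targeted RNA could not check the labels, since Linc-AAM was found in 0 gene names of the array, and its level was not analysed here. Lines are therefore called the arrays labelled knockdown and labelled scramble, as on the scanner files, and every difference between lines takes the other sign under the table's labels. An AEPS effect fitted over both lines is the same under either labelling.

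The 4 arrays came from 1 slide and were scanned together. Spots well above background made up 53.4% to 58.0% of the non-control spots, the 75th percentile of the processed intensity was 439.1 to 587.7, and 0 spots were saturated. Of 12 macrophage markers 11 were well above background on all 4 arrays, and Mertk, a receptor for the uptake of dying cells, on none. Markers of other cells were also detected on all 4 arrays. These were 3 of 6 for T cells (Cd3e, Cd5 and Lck) and 1 of 5 for B cells (Cd79a). For granulocytes and their precursors they were 3 of 6 (Elane, Ctsg and Camp), and for dendritic cells 3 of 5 (Flt3, Zbtb46 and Siglech). Fibroblasts had 1 of 5 (Col1a2), epithelial cells 2 of 5 (Krt5 and Krt14) and erythroid cells 1 of 3 (Hba-a1). Among the other markers of these lists, Ms4a1, Pax5, Mpo, Pdgfra, Col3a1, Epcam and Cdh1 were well above background on none. In bulk RNA, a change in the number of cells and a change of RNA per cell cannot be told apart.

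Under AEPS, Cebpd rose about 10-fold and Cebpb rose less than 2-fold, Cebpa fell by more than 2-fold, Spi1 was higher on both AEPS arrays without passing the test, and Runx1 had no common direction. Maf was well above background on 1 array only. Values are log2 of the processed intensity less the 75th percentile of the array, called log2 values, and they compare arrays for 1 probe and not 1 probe with another. The AEPS effect over both lines comes from an additive limma model of line and treatment over 22341 genes, with Benjamini-Hochberg adjustment over all of them and a threshold of 0.05. With 1 array per group it has 1 residual degree of freedom, so its p-values speak of the spread of these 4 arrays alone. Within 1 line there is no test, and a difference of at least 2-fold is called.

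Cebpd encodes C/EBPδ, which inflammatory signals induce and which prolongs the expression of cytokine genes. Its log2 values were 7.30 and 7.71 on the AEPS arrays labelled knockdown and scramble, against 4.16 and 4.06 on the DMEM arrays with the same labels. The groups did not overlap, and here as for the other members the share of all genes without overlap was not counted. On the intensity scale the AEPS arrays read 70536 and 106883, against 7851 and 9781 on the DMEM arrays. Over both lines Cebpd rose by 3.40 ± 0.17 log2 units (SE; limma adjusted p = 0.00769), which is 10.5-fold, with 8.80-fold on the arrays labelled knockdown and 12.6-fold on those labelled scramble. Of all tested genes, 0.998% had a larger AEPS effect.

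Cebpb encodes C/EBPβ, which is already present in resting macrophages and is activated further by phosphorylation. Its log2 values were 5.69 and 5.87 on the AEPS arrays labelled knockdown and scramble, against 5.01 and 4.99 on the DMEM arrays. Both AEPS arrays were thus above both DMEM arrays by less than 1 unit. Cebpb rose by 0.78 ± 0.12 (SE; limma adjusted p = 0.0351), or 1.72-fold, with 1.61-fold on the arrays labelled knockdown and 1.83-fold on those labelled scramble, both under the 2-fold call. The call ends with quantile normalization (0.59, limma adjusted p = 0.0601) and in the authors' value table (0.61, limma adjusted p = 0.0558).

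Cebpa was the member that fell. Its log2 values were -0.50 and -0.25 on the AEPS arrays labelled knockdown and scramble, against 0.62 and 1.05 on the DMEM arrays, so that both AEPS arrays lay below both DMEM arrays. Cebpa fell by 1.21 log2 units (SE 0.12; limma adjusted p = 0.0173), which is 2.31-fold, and the AEPS arrays were 2.17-fold lower on the arrays labelled knockdown and 2.46-fold lower on those labelled scramble. With a normexp background, the difference on the arrays labelled knockdown was -0.98 and missed the 2-fold call. The related Cebpg, whose product C/EBPγ lacks an activation domain and whose probe lies 71040 bases from that of Cebpa, had an AEPS effect of -0.31 in the fit on probes (limma adjusted p = 0.203).

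**Figure D1:**
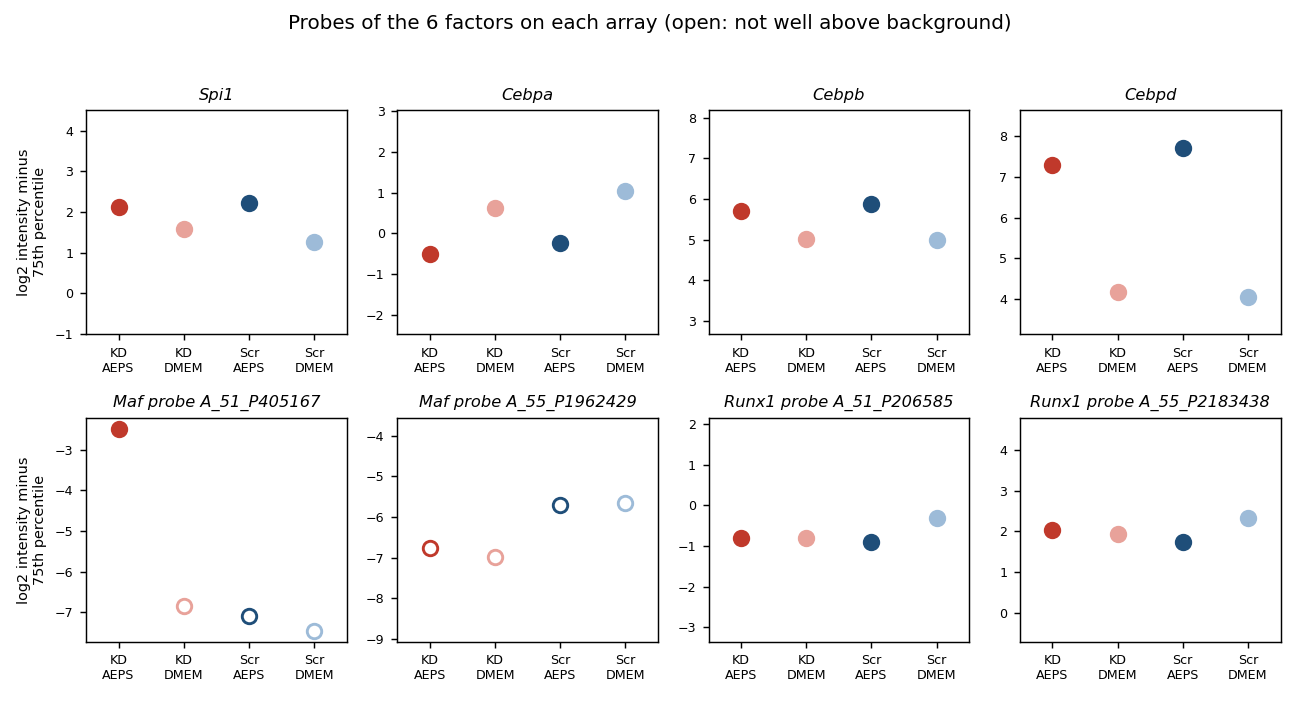
Log2 processed intensity less the 75th percentile of the array (y axis, the same span in each panel) for the 8 probes of the 6 factors on the arrays labelled knockdown (KD) and scramble (Scr) under AEPS and in DMEM, 1 point per array, with open points where the spot was not well above background. Cebpd stands at 7.30 and 7.71 under AEPS against 4.16 and 4.06 in DMEM, Cebpa runs the other way, and Maf is filled on 1 array only.

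Spi1, which encodes PU.1, had log2 values of 2.13 and 2.23 on the AEPS arrays labelled knockdown and scramble, against 1.58 and 1.27 on the DMEM arrays. The difference between AEPS and DMEM did not pass the test. The AEPS effect was 0.75 ± 0.15 (SE; limma adjusted p = 0.0554, unadjusted p = 0.00898), with 1.46-fold on the arrays labelled knockdown and 1.94-fold on those labelled scramble. Its effect was about as large as that of Cebpb, and its spread was wider. Spi1 passed with a normexp background (limma adjusted p = 0.0115), with the filter for a signal on all 4 arrays (limma adjusted p = 0.0266) and with an intensity trend in the variance (limma adjusted p = 0.00396). It did not pass with quantile normalization (limma adjusted p = 0.0586) or in the authors' value table (limma adjusted p = 0.0617). Nor did it pass with the mean over probes (limma adjusted p = 0.0548) or without a filter on dim genes (limma adjusted p = 0.21).

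Runx1 was read by a pair of probes whose starts lie 1372 bases apart. On the main probe the log2 values were 2.04 and 1.74 on the AEPS arrays labelled knockdown and scramble, against 1.95 and 2.34 on the DMEM arrays, and the groups overlapped. The AEPS effect was -0.25 ± 0.21 (SE; limma adjusted p = 0.449), made of 0.10 on the arrays labelled knockdown and -0.60 on those labelled scramble. The other probe gave -0.81 and -0.90 on the AEPS arrays, against -0.81 and -0.31 on the DMEM arrays, with an AEPS effect of -0.29 ± 0.19 in the fit on probes (limma adjusted p = 0.355). Both probes thus placed the scramble array in DMEM above the other 3 arrays.

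Maf gave a signal on a single array. Its main probe had log2 values of -2.50 and -7.11 on the AEPS arrays labelled knockdown and scramble, against -6.86 and -7.46 on the DMEM arrays, and only the AEPS array labelled knockdown was well above background. On that array the spot had a mean of 104 intensity units over a local background of 27, while the other 3 spots had means of 21.9 to 27.0 over backgrounds of 29 to 31. Maf was therefore at least 4.65-fold higher under AEPS than in DMEM on the arrays labelled knockdown, where the dim array is set at its lowest signal well above background. Likewise Maf was at least 5.84-fold higher on the AEPS array labelled knockdown than on the one labelled scramble. On the log2 scale these bounds are 2.22 and 2.55, and the plain differences between the same arrays were 1.29 and 1.39 with a normexp background and 4.56 and 4.60 with quantile normalization. Neither bound has a replicate, and Maf was not tested with limma. This probe was taken as the main one for its higher mean over the arrays, and the 1 bright array gave it that higher mean. Both bounds thus come from a probe chosen through the value that they report.

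The second Maf probe does not show the same signal. It had log2 values of -6.75 and -5.70 on the AEPS arrays labelled knockdown and scramble, against -6.97 and -5.66 on the DMEM arrays, and was not well above background on any of the 4. With both probes averaged, the Maf differences were 0.09 for AEPS on the arrays labelled knockdown and 0.42 between the lines under AEPS, and neither was called. A probe for the transcript CB193388, 2407 bases from the main Maf probe, had log2 values of -4.87 and -7.10 on the AEPS arrays labelled knockdown and scramble, against -6.85 and -7.46 on the DMEM arrays, without being well above background on any. In the authors' value table the Maf signal stands in the column labelled scramble under AEPS, at 6.43 against 1.83 to 1.86 in the other 3.

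By limma, 2 of the 5 tested members rose and 1 fell, while 14.7% of all 22341 genes were called, 7.4% as higher and 7.29% as lower. Of the 5 members, 4 had an unadjusted p under 0.05, against 33.9% of all tested genes. The median AEPS effect was 0.75 over the 5 members and 0.07 over all tested genes. On the arrays labelled knockdown, Cebpd was called higher and Cebpa lower, against 8.13% of all genes called in either direction, bounds included. Maf was called higher there only by its bound, through the single array where it gave a signal, and not with its probes averaged. On the arrays labelled scramble, Cebpd was called higher and Cebpa lower, against 11.9% of all genes. The members' medians were 0.55 on the arrays labelled knockdown and 0.87 on those labelled scramble, against 0.06 on both over all genes.

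Quantile normalization moved the median AEPS effect over all genes by -0.10, to -0.03. Relative to the median of all genes, the AEPS effect was 3.33 for Cebpd, 0.71 for Cebpb, 0.68 for Spi1, -0.32 for Runx1 and -1.28 for Cebpa. With quantile normalization the same relative effects were 3.20 for Cebpd, 0.62 for Cebpb, 0.76 for Spi1, -0.24 for Runx1 and -1.17 for Cebpa, so that each kept its direction.

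**Figure D2:**
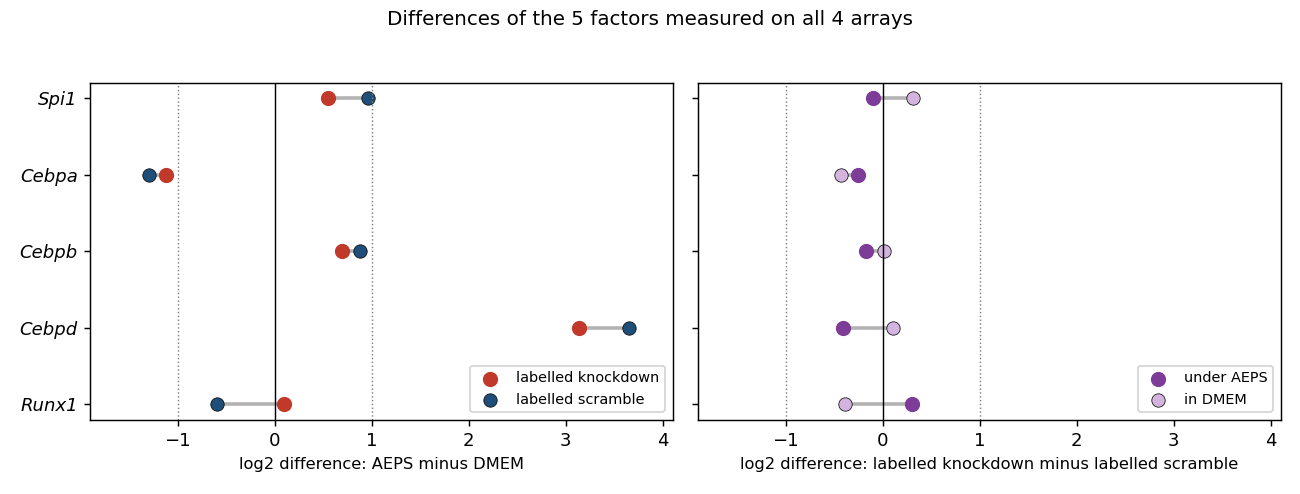
Log2 differences (x axis) of the 5 factors measured on all 4 arrays, on the left AEPS minus DMEM on the arrays labelled knockdown and labelled scramble, on the right labelled knockdown minus labelled scramble under AEPS and in DMEM, with dotted lines at 2-fold. Cebpd lies at 3.14 and 3.66 on the left, and every point on the right lies inside the 2-fold lines.

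Between the lines, no member measured on all 4 arrays was called. At the shares below, this does not set the members apart from other genes. By limma, 0 of the 5 members differed between the arrays labelled knockdown and those labelled scramble, while 0.739% of all genes were called. An unadjusted p under 0.05 was found for 0 of the 5 and for 14.6% of all genes. Cebpa was nearest, at -0.50 and 0.62 on the arrays labelled knockdown under AEPS and in DMEM, against -0.25 and 1.05 on those labelled scramble. Its line difference was -0.34 ± 0.12 (SE; limma adjusted p = 0.346, unadjusted p = 0.0510). The line differences of the other 4 members were 0.11 for Spi1, -0.08 for Cebpb, -0.16 for Cebpd and -0.04 for Runx1, with limma adjusted p of 0.734 to 0.946. Under AEPS only Maf, by its bound, was called between the lines, against 4.54% of all genes. In DMEM 0 members were called at 2-fold, against 3.87% of all genes.

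The difference in response, taken as knockdown minus scramble by the array labels, has no test. It was 0.69 for Runx1, 0.18 for Cebpa, -0.19 for Cebpb, -0.41 for Spi1 and -0.52 for Cebpd, and 0 of the 5 members reached a size of 1, against 2.15% of 20339 genes. The members' median was -0.19 and that of all genes 0.04. For Spi1, Cebpb and Cebpd the AEPS effect was smaller on the arrays labelled knockdown, and for Cebpa the decrease was smaller there. Under the value table's labels these signs are turned.

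Genes that act with the members were described from lists chosen with earlier results of these data known. Beside the counts of each list, 7.4% of all tested genes were called higher under AEPS and 7.29% lower. Of 9 tested genes of the C/EBP family and its partners, 2 rose and 1 fell, with a median of 0.42. Atf3, a stress-induced factor that curbs cytokine genes, rose by 2.03 ± 0.14 (SE; limma adjusted p = 0.0098), and Trib3, a pseudokinase, rose by 0.72 (limma adjusted p = 0.0418). Cebpe, whose product C/EBPε matures granulocytes, fell by 0.92 on the log2 scale (limma adjusted p = 0.0395), and its log2 values were 0.03 and 0.51 on the AEPS arrays labelled knockdown and scramble, against 1.15 and 1.22 on the DMEM arrays. Batf2 had an effect of 2.08 ± 0.48 (SE) without passing (limma adjusted p = 0.0681).

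Of 7 tested genes of the MAF family and its BACH partners, 1 rose and 2 fell, with a median of 0.31. Maff, a small MAF protein without an activation domain, rose by 3.78 ± 0.21 (SE; limma adjusted p = 0.0079). Bach1, a haem-sensing repressor, fell by 0.88 (limma adjusted p = 0.0484), and Mafk had an effect of 0.97 (limma adjusted p = 0.0572).

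Of 6 tested RUNX family genes and cofactors, 0 were called by limma, 4 of them with an unadjusted p under 0.05 and a lower signal under AEPS, against 16.4% of all tested genes, and the median was -0.40. The corepressor gene Tle1 had an effect of -0.93 ± 0.20 (SE; limma adjusted p = 0.0619), Cbfa2t2 of -0.44 (limma adjusted p = 0.0898) and Tle3 of -0.41 (limma adjusted p = 0.124). Of 14 tested ETS family genes, to which Spi1 belongs, 3 rose and 4 fell, with a median of 0.06. Ets2 rose by 2.18 ± 0.23 (SE; limma adjusted p = 0.019), while Etv5 fell by 1.53 (limma adjusted p = 0.0243) and Fli1, a factor of blood and endothelial cells, fell by 1.30 (limma adjusted p = 0.0172).

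Of 27 tested genes for other myeloid lineage factors, 6 rose and 4 fell, with a median of 0.05. Irf4, which in macrophages is tied to alternative activation, rose by 5.22 ± 0.32 (SE; limma adjusted p = 0.00899), and Myc rose by 2.69 ± 0.13 (SE; limma adjusted p = 0.00735). The repressor gene Gfi1 was not well above background on either DMEM array and was at least 1.54-fold higher under AEPS (limma adjusted p = 0.0213, which rests on those dim DMEM values). Without Gfi1, which entered the fit through the AEPS arrays alone, the counts were 5 and 4 of 26 and the median 0.02. Lmo2 had a line difference of -1.01 and was not called (limma adjusted p = 0.104).

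Of 25 genes tied to PU.1 in macrophages, 5 rose and 1 fell, with a median of 0.16, and 11 had an unadjusted p under 0.05 with a higher and 4 with a lower signal under AEPS, against 17.5% and 16.4% of all tested genes. Il1b, the inflammatory cytokine gene, rose by 11.78 ± 0.76 (SE; limma adjusted p = 0.00946). Cybb, an oxidase subunit gene, rose by 1.58 ± 0.14 (SE; limma adjusted p = 0.0149), and Tlr4, the lipopolysaccharide receptor gene, fell by 1.68 on the log2 scale (limma adjusted p = 0.0433). Of the 106 list genes tested, 2 differed between the lines, against 0.739% of all tested genes. These were Mpeg1, the perforin-2 gene, with a line difference of -1.70 ± 0.12 (SE; limma adjusted p = 0.0363), and Atf3, with -1.81 ± 0.14 (SE; limma adjusted p = 0.04).

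Of 19 genes tied to C/EBP factors in myeloid cells, 15 were tested, and of these 9 rose and 0 fell, with a median of 2.32. Csf3, the gene of granulocyte colony-stimulating factor, and Il6 were well above background on the AEPS arrays only, and were at least 395-fold (limma adjusted p = 0.00605) and at least 65.2-fold higher (limma adjusted p = 0.0113), with p-values that rest on dim DMEM values. Without this pair, which entered the fit through the AEPS arrays alone, 7 of 13 rose and 0 fell, with a median of 1.498. Saa3, an acute-phase gene, rose by 7.05 ± 0.40 (SE; limma adjusted p = 0.00804). Of 14 genes tied to MAF in macrophages, only 7 were well above background on at least 2 arrays and so tested. Of these 7, 3 rose and 0 fell, with a median of 0.30. Il10, which encodes an anti-inflammatory cytokine, rose by 3.58 ± 0.61 (SE; limma adjusted p = 0.0401), with log2 values of -1.22 and -0.55 on the AEPS arrays labelled knockdown and scramble, against -3.63 and -5.30 on the DMEM arrays. The value of -5.30 lies close to the lowest signal well above background on that array, -5.37, so the size of this increase rests partly on a dim spot. Mrc1, the mannose receptor gene, entered through the AEPS arrays alone, like Csf3 and Il6. It was at least 2.36-fold higher under AEPS (limma adjusted p = 0.0195, also on dim DMEM values), and without it 2 of 6 rose, with a median of 0.24. Pf4 rose by 1.27 (limma adjusted p = 0.0339). The 8 medians stay the same with the genes that have only a bound placed at it. Each of these bounds lies above its list's median, so this placement could not move the medians.

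**Figure D3:**
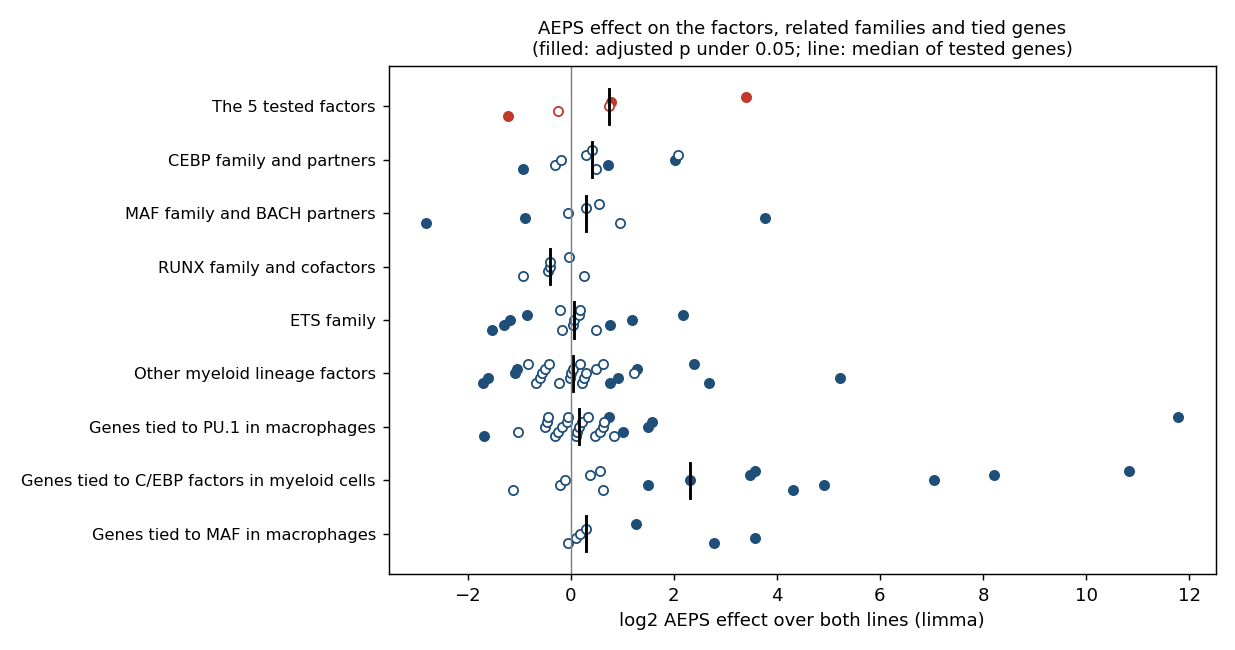
AEPS effect over both lines from limma (x axis, log2) for the 5 tested factors and for the tested genes of 8 lists of related factors and tied genes, filled where the adjusted p was under 0.05, with a bar at each median. The factors have a median of 0.75, and of the lists the genes tied to C/EBP factors have the highest median, 2.32. Without Csf3 and Il6, which entered the fit through the AEPS arrays alone, that median is 1.498.

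The genes whose 4 log2 values were most alike those of each member, by the Euclidean distance after centring each gene on its mean, were sought among 12243 genes, those of the 20339 well above background throughout that carry an official-style RefSeq symbol. For Cebpd they were Ndrg1 at a distance of 0.18, Hsd17b13 at 0.23 and Nfkbiz at 0.25. Nfkbiz encodes IκBζ, a nuclear cofactor of inflammatory genes. For Cebpb the nearest were Pik3ap1, Alg11 and Ptpn23 at 0.03 to 0.05, for Cebpa Aunip, Itga6 and Ankrd44 at 0.04 to 0.08, for Spi1 Kcna5, Rc3h1 and Bcorl1 at 0.05 to 0.07, and for Runx1 Idh1 and Apoc1 at 0.03 and 0.06. With 4 arrays, many genes can share a pattern, and the distances are a description.

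**Figure D4:**
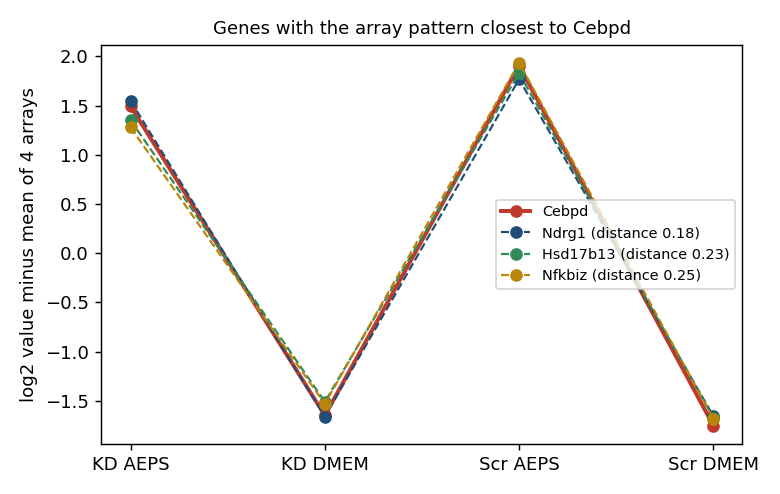
Log2 values less the gene's mean over the 4 arrays (y axis) of Cebpd and of the 3 genes with the nearest pattern, on the arrays labelled knockdown (KD) and scramble (Scr) under AEPS and in DMEM, with lines joining the points of a gene. All 4 genes stand high on both AEPS arrays, and the distances to Cebpd run between 0.18 and 0.25.

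Around the members' probes, within 100 kb in mm9, lay 35 probes of other genes, by the midpoints of the probes, of which 28 were tested in the fit on probes. In this fit 13.8% of 31268 probes were called for AEPS, and of the 28 there were 2. Mybpc3, a cardiac myosin-binding protein gene whose probe lies 30023 bases from that of Spi1, rose by 2.12 ± 0.13 (SE; limma adjusted p = 0.010). Prkdc, a DNA repair kinase gene whose probe lies 47869 bases from that of Cebpd, fell by 0.91 on the log2 scale (limma adjusted p = 0.032). The Spidr probe, 884 bases from that of Cebpd, had an AEPS effect of 0.01 ± 0.14 (SE; limma adjusted p = 0.977). The other neighbours tested, 4 around Cebpa, 6 around Cebpb and 1 around Maf among them, were not called.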

How the data were processed

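The deposited scanner files, made with Agilent Feature Extraction 10.7.1.1 per the file headers, hold a linear intensity for each spot. This was corrected for background and spatial trend within each array by that program and left unscaled between arrays, per the file headers. The authors' deposited series table holds log2 values that look quantile-normalized, with a median of 4.69 in each column, not centred per gene. How it was made is not stated in the labels or files at hand.

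From these files, control and outlier spots (164 to 231 per array) were left out, log2 processed intensity was reduced by the array's 75th percentile, spots of a probe were averaged, and a gene took its probe with the highest mean. Names were updated through RefSeq by accession (26582 probes), symbol (2602) or synonym (492), and 26005 kept the design's name. Genes whose spot was well above background on at least 2 arrays entered limma 3.58.1 (R 4.3.3), with a prior SD of 0.132 and 2.82 prior degrees of freedom. The residual of the additive model is the difference in response, so a gene that responds differently in the lines is less easily called. Simulated data for the AEPS effect on 22341 genes gave back 83 of 100 genes changed by 2 and 98 of 100 changed by 4 on the log2 scale, with 10 false calls. The simulated spread came from the fit's own prior, with no difference in response between the lines and far fewer changed genes than were called. Sizes below 2, where Cebpa, Cebpb and Spi1 lie, were not simulated. Probes printed 10 times had a median SD of 0.036 to 0.046 within an array, and the number of arrays limits the precision. The members and lists were chosen with earlier results of these data known. From each list the text names the 3 genes with the largest AEPS effect and the 2 with the largest line difference in size, or some of them, and others chosen after their values were seen (Trib3, Bach1, Cebpg, and the neighbours Mybpc3, Prkdc, Spidr and CB193388). Some genes that this rule picks are not reported here. Alternatives were a normexp background (offset 50), quantile normalization, the authors' table, the mean over probes, other filters on dim genes and an intensity trend.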

Additional observations from a re-analysis of the deposited data

Results flagged for a closer look

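For Runx1 the AEPS effect ran in opposite directions on the arrays of the 2 line labels, 0.10 on those labelled knockdown and -0.60 on those labelled scramble, a difference of 0.69 on the log2 scale that was not tested, since each group has 1 array. The other Runx1 probe gave 0.00 on the arrays labelled knockdown and -0.59 on those labelled scramble.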

How the results depend on the processing

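Every member well above background on all 4 arrays kept the direction of its AEPS effect over both lines in the settings run, and Cebpd was called by limma in all of them. The other filters on dim genes and the intensity trend leave these effects unchanged, so they could not turn a direction. The mean over probes could do so for Runx1 only. The number of members called for AEPS was 3, against 1 without a filter on dim genes, where Cebpa had a limma adjusted p of 0.0949 and Cebpb of 0.17. The 1 member called between the lines under AEPS, Maf, became 0 with the mean over probes. The count is also 0 in the authors' table and with the filter on all 4 arrays, where Maf was outside the genes counted, while in the table its difference between the lines under AEPS was -4.60 by the table's labels. The 0 members called for the difference in response became 1, Maf, without a filter. The line differences over both media reversed in the authors' table, whose line labels are crossed, to -0.15 for Spi1, 0.34 for Cebpa, 0.0036 for Cebpb, 0.093 for Cebpd and 0.0044 for Runx1, and for Cebpb with quantile normalization to 0.014, with none called. Over all genes, limma called 1653 higher and 1629 lower for AEPS, against 2522 and 2574 with normexp, 1522 and 2047 with quantile normalization, 1491 and 1904 in the authors' table, 271 and 32 without a filter, and 3622 and 3076 with an intensity trend. For the lines it called 89 higher and 76 lower, against 418 and 316 with normexp, 187 and 150 with the filter on all 4 arrays, 0 and 0 without a filter, and 581 and 707 with an intensity trend. The additive model compares AEPS with DMEM within each line. No further pairing of arrays was possible because each group holds 1 array and the labels share 1 replicate number only. Leaving out an array leaves no residual, so it was not run. Dim spots limit Maf, whose values are bounds.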
